A study of Homo sapiens with 12 samples.

Results

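The 10 genes described here encode core BCL2 family regulators of apoptosis. They are the antiapoptotic genes BCL2, BCL2L1 and MCL1, the effector genes BAX and BAK1, and the BH3-only genes BCL2L11, BBC3, BID, BAD and PMAIP1. They were chosen by gene name, and every row that names one of them was taken from the 6 deposited lists of acetylated messenger RNA sites. In all, 7 of the 10 genes had a listed site, while the lists together name 10252 genes, and the 7 held 45 sites in all. The other 3, MCL1, BAX and PMAIP1, had no listed site in any of the 6 lists.

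The cells were HK-2, an established line of renal tubular epithelial cells of human origin, in 2 genotypes: NAT10 knockout (Nat10_KO in the sample titles, KO below) and wild-type control (Wt, WT below). No treatment or time point is labelled for either genotype. The series text speaks of NAT10 KD, a knockdown, where the sample labels say knockout, and neither says whether the KO cells are a single clone, so KO is used only as a label. For each genotype there were 3 replicates, each an ac4C immunoprecipitate (IP) with its input, and each of these pairs gave 1 list of sites, so 12 samples make 6 lists. Nothing in the labels says that replicates were grown separately, so the spread between lists, and any p-value from it, may be technical only.

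N4-acetylcytidine (ac4C) is a modified base that the acetyltransferase NAT10 writes into RNA, and the antibody pulls down RNA fragments that carry it. BCL2 proteins decide whether the outer mitochondrial membrane stays closed. BH3-only proteins are switched on by stress and act on the other members, antiapoptotic proteins hold them and the effectors in check, and the effectors BAX and BAK open the membrane, which lets cytochrome c out to start caspase activation. In the kidney, tubular epithelial cells are a main site of this form of death after ischaemic or toxic injury.

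The KO lists held 13818, 17872 and 19136 sites and the WT lists 17541, 17107 and 15289. A listed site has a fold enrichment of IP over input of at least 2 and a score of at least 50, where the score is 10 times the negative log10 of the peak caller's p-value. The lists carry no read counts, so how deeply a site was sequenced is unknown and its values carry no interval. In these bulk samples, fewer cells with a transcript and less of it per cell cannot be told apart, and a fold of IP over input gives neither. The targeted gene, NAT10, held 2, 5 and 9 sites in the KO lists and 11, 11 and 8 in the WT lists (exact permutation p = 0.2), and a site list shows no transcript level, so it does not check the knockout. Of 17 markers of renal tubular epithelium, 13 had a site in some list, but only 5 had a site in all 6 lists. PAX2, EPCAM, AQP1 and SLC34A1 had none. Of 13 markers of other cell types, COL1A2 had 1 site in 1 WT list and the pericyte and fibroblast marker PDGFRB had 4 to 6 sites in every list.

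As deposited, the KO lists held fewer sites on the family than the WT lists, and BAD alone made up -4 of the difference of -6.33 sites per list. The KO lists held 4, 2 and 7 family sites on 3, 2 and 4 genes, and the WT lists held 11, 12 and 9 sites on 5 genes each. That is 4.33 ± 2.52 sites per KO list and 10.7 ± 1.53 per WT list (SD, n = 3 each), a difference of -6.33. With sites limited to the authors' false discovery rate of at most 50%, which no BAD site meets, the lists held 1.67 family sites in KO and 2 in WT, a difference of -0.333. The number of members with a site was then 1.67 per KO list and 1 per WT list, a difference of 0.667 in place of -2. Among all genes, lists of both genotypes were of like size, with 16942 ± 2778 sites per KO list and 16646 ± 1195 per WT list (SD, n = 3 each). Genes with a site numbered 7417 ± 633 per KO list and 7053 ± 275 per WT list (SD, n = 3 each). At the limit of 50%, 273 genes had fewer and 2741 had more sites in every KO list than in any WT list. The antiapoptotic genes held 1, 1 and 3 sites in KO lists and none in WT lists, and 2 of the 3 in KO replicate 3 were of BCL2. The effector genes held no site in KO lists and 1 in each WT list. The BH3-only genes held 3, 1 and 4 sites in KO lists and 10, 11 and 8 in WT lists, of which BAD held 4 in each WT list. Genes of the same roles outside the 10 did not all go this way, as given below.

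**Figure D1:**
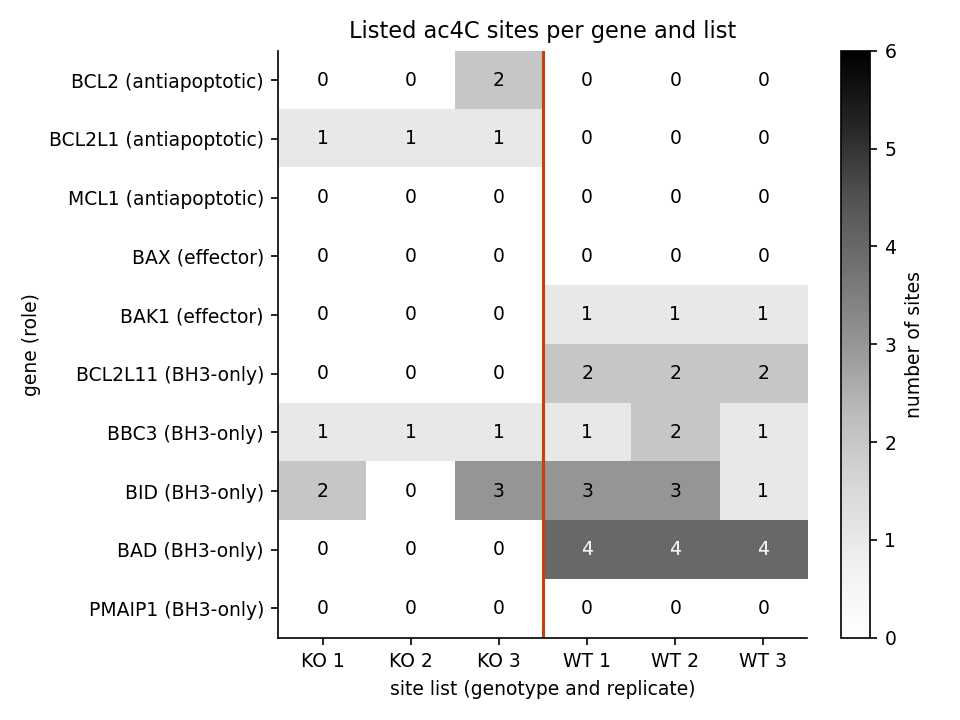
Number of listed ac4C sites for each of the 10 genes (rows, with their role) in each of the 6 lists (columns, KO left of the line and WT right of it). BCL2L1 has 1 site in every KO list and none in WT lists, whereas BAK1, BCL2L11 and BAD have sites in every WT list and none in KO lists.

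Clear separation of the genotypes was common among all genes, so the members' count has to be read against that background. Of the 10252 genes with a site, 23.1% had fewer sites in every KO list than in any WT list and 23.7% had more, which makes 46.8% in either direction. Among the 7 members with a site, 3 were of the first kind (BAK1, BCL2L11 and BAD) and 1 of the second (BCL2L1). In the stricter sense of presence against absence, 11.8% of all genes were listed in the 3 WT lists and absent from KO, and the same 3 members met this. The reverse, listed in the 3 KO lists and absent from WT, was true of 15% of all genes and of BCL2L1. The median difference of KO minus WT was -0.667 sites per list over the 7 members and 0 over all genes, of which 44.3% had a lower and 48% a higher mean in KO lists. With 3 lists against 3, the smallest possible exact permutation p is 0.1, which these 4 members reached. Adjusted over all 10252 genes by the Benjamini-Hochberg method, the exact permutation p of each was 0.214. No gene passed 0.05 in this test, adjusted or unadjusted (0 genes in both cases).

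**Figure D2:**
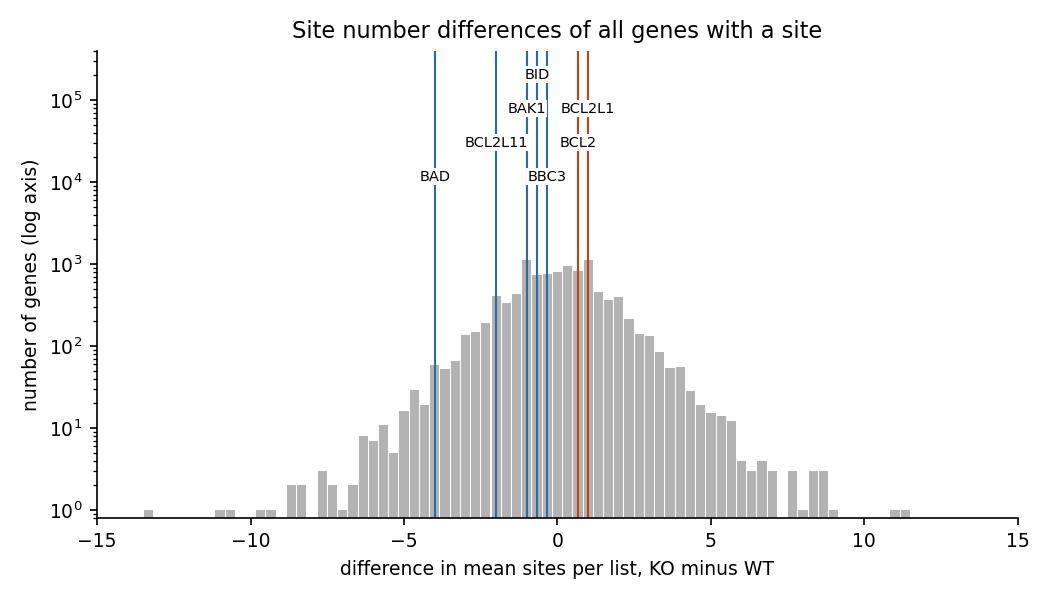
Distribution of the difference in mean site number per list, KO minus WT, over the 10252 genes with a site (grey bars, logarithmic vertical axis), with the 7 members that had a site marked by lines. BAD lies at -4 and BCL2L11 at -2, BCL2L1 at 1, and the median of all genes at 0.

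BCL2L1 (GeneID 598) encodes BCL-XL, an antiapoptotic protein that binds both BH3-only proteins and the effectors. It held 1 site in KO replicates 1, 2 and 3 and no site in any WT list. The site had the same ends in all 3 KO lists, chr20:30252267-30253889 as the files give it, and was annotated to the stop codon of transcript NM_001191. At 1623 bases it was among the longest sites, at the 99.2nd percentile of length in each KO list. Its fold was 18.0, 17.9 and 18.5 in KO replicates 1, 2 and 3, at percentiles 77.1, 83.6 and 84.3 of all folds in those lists. The score was 3100 in all 3 KO lists, a value that 16.3%, 10.4% and 8.24% of their sites reached or passed. The authors' false discovery rate for the site was 14.1%, 16.1% and 11.3%, and no lower rate was listed in those lists to this rounding. Long non-coding RNA genes overlap BCL2L1 in the RefSeq annotation (BCL2L1-AS1 and LOC124904883), and the files give no strand for a site.

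BCL2 (GeneID 596), the founding antiapoptotic member, had sites in KO replicate 3 alone, which is the longest of the 6 lists. The 3' UTR site (chromosome 18, 60794578 to 60794814) had a fold of 11.9, and the 5' UTR site (60986176 to 60986695) had a fold of 6.82. Their false discovery rates were 45.7% and 64.9%. The lists held 0.667 ± 1.15 sites in KO and 0 ± 0 in WT (SD, n = 3 each), with an exact permutation p of 1. Without KO replicate 3 the difference was 0. MCL1, which encodes a short-lived antiapoptotic protein, had none in any list.

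Of the effectors, BAK1 (GeneID 578) was listed and BAX was not. BAK resides in the outer mitochondrial membrane, where it forms pores once activated. BAK1 held no site in the KO lists and 1 site in each WT list. It had identical ends in all 3, on chromosome 6 from 33540627 to 33541451, and was annotated to the stop codon. This site was long (825 bases, at the 97.1st to 97.3rd percentile of length) and of ordinary enrichment. Its fold was 7.03, 6.30 and 8.25 in WT replicates 1, 2 and 3, at percentiles 46.1, 40.0 and 49.6, and its false discovery rate was 79.1%, 76.3% and 67.5%.

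BCL2L11 (GeneID 10018) encodes BIM, a BH3-only protein that binds all antiapoptotic members and can activate BAX and BAK directly. It had no site in the KO lists and 2 in every WT list, and both were annotated to ends of the reading frame. The start codon site shared 338 bases between the 3 WT lists, on chromosome 2 from 111881376 to 111881713, and was annotated to transcript NM_138621. The stop codon site began at 111921710 in all 3 and was 120, 362 and 30 bases long in WT replicates 1, 2 and 3, annotated to NM_006538. The start codon site had folds of 1914, 2797 and 2000 in WT replicates 1, 2 and 3, and the stop codon site had folds of 1173, 1329 and 1425. Both sites were thus extreme in each WT list. Sites with a fold of at least 1000 numbered 78, 78 and 85 in the WT lists, which is 0.445%, 0.456% and 0.556% of sites. By its highest fold, BCL2L11 ranked 32nd of 7235 genes, 13th of 7188 and 34th of 6737. The highest fold of any other member was 33.0.

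The scores of all 6 BCL2L11 sites were 3100, a level that 6.44%, 6.63% and 6.71% of the sites of the WT lists reached or passed. Their false discovery rates of 42.6%, 38.9% and 29.2% equalled, to this rounding, the lowest rate in each of those lists. They were the only member sites of the WT lists with a rate of 50% or less. The KO lists held 29, 33 and 31 sites with a fold of at least 1000, or 0.21%, 0.185% and 0.162% of their sites. With no KO site at any fold, this gene could not be among them.

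**Figure D3:**
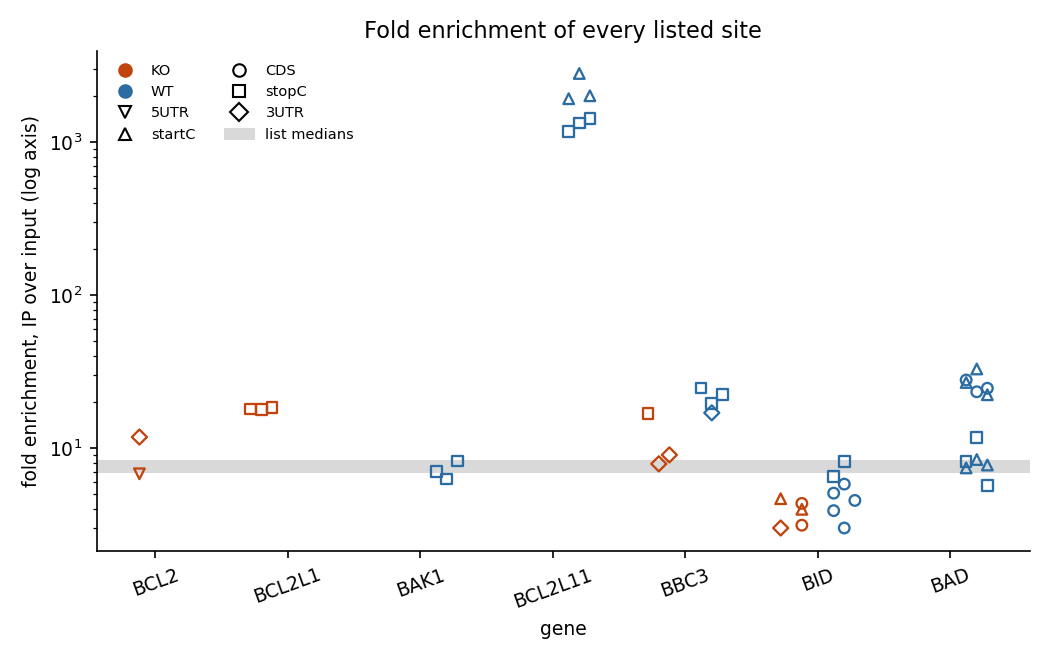
Fold enrichment of IP over input for all 45 member sites on a logarithmic axis, by gene, with KO lists left (red) and WT lists right (blue) within each gene and the marker shape giving the transcript part. The 6 BCL2L11 sites lie above 1000, the others at 33 or less, and the grey band spans the median folds of the 6 lists (7.03 to 8.32).

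BAD (GeneID 572) encodes a BH3-only protein that growth factor signalling keeps phosphorylated and bound to 14-3-3 proteins. It held no site named for it in the KO lists and 4 in each WT list, the largest difference among the members. From low to high coordinate on chromosome 11, the WT sites were annotated to the stop codon (64037300 to 64037571) and to a start codon of transcript ENST00000493798 (64039113 to 64039340). The next were annotated to the coding sequence (64044421 to 64044515) and to the start codon of NM_004322 (from 64051654). The coding site had folds of 27.9, 23.4 and 24.7 in WT replicates 1, 2 and 3. The NM_004322 start codon site had folds of 26.9, 33.0 and 22.4, so both were between the 85.8th and 92nd percentile of their lists. The stop codon site (8.23, 11.8 and 5.70) and the other start codon site (7.45, 8.45 and 7.78) were nearer to the medians of the lists. All 12 sites had a false discovery rate between 52.7% and 86.3%, so none remained at a limit of 50%.

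BAD overlaps the receptor gene GPR137 in the RefSeq annotation, and sites named for GPR137 were listed inside the stretch that the BAD sites span. In each KO list, 1 site named for GPR137 lay from 64037534 to 64038133, with folds of 3.39, 3.24 and 5.53, and it shared 38 bases with the BAD stop codon site of the WT lists. In each WT list, a site of 43 bases named for GPR137 lay from 64043189 to 64043231, with folds of 40.6, 37.2 and 48.0, and it touched no BAD site. The files give no strand, so reads of these genes cannot be told apart there. The other 3 BAD regions had no site of any gene in the KO lists.

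BBC3 (GeneID 27113) encodes PUMA, a BH3-only protein that binds all antiapoptotic members, and was the only member with a site in all 6 lists, as were 38.9% of all genes. It held 1 site in each KO list and 1, 2 and 1 in WT replicates 1, 2 and 3 (exact permutation p = 1). All sites merged into 1 region on chromosome 19 from 47724093 to 47725032, and 228 bases of it, from 47724353 to 47724580, were covered in every list. The KO sites all began at 47724252, and in replicates 2 and 3 they ended at 47724691 and were annotated to the 3' UTR. The site of KO replicate 1 ran on to 47725032 and was annotated to the stop codon. Every WT list reached 47725027 with a site annotated to the stop codon. This site had 675 bases in WT replicates 1 and 3, and 230 bases in WT replicate 2, beside a 3' UTR site of 488 bases. The highest folds were 16.8, 7.92 and 9.06 in the KO lists, at percentiles 75.6, 56.3 and 61.4. In the WT lists they were 24.7, 19.7 and 22.4, at percentiles 89.1, 84.2 and 85.8. The genotypes thus shared the region and not its ends, with KO replicate 1 nearer to the WT lists in extent. The BBC3 sites had false discovery rates between 47.8% and 69.4%. The microRNA genes MIR3190 and MIR3191 lie within BBC3 in the RefSeq annotation.

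BID (GeneID 637) encodes the BH3-only protein that caspase-8 cleaves, which links death receptors to mitochondria. It held 2, 0 and 3 sites in the KO lists and 3, 3 and 1 in the WT lists, or 1.67 ± 1.53 and 2.33 ± 1.15 (SD, n = 3 each; exact permutation p = 0.7), so the genotypes overlapped. The difference of -0.667 sites became 0.167 without KO replicate 2. Its 12 sites fell into 5 regions on chromosome 22, with folds between 3.02 and 8.18, at percentiles between 5.96 and 53.2 of their lists. The coding site from 18220783 to 18220995 was the most common, in KO replicate 3 and all WT lists, with folds of 3.15 in KO replicate 3 and 5.10, 5.84 and 4.57 in WT replicates 1, 2 and 3. A second coding site starting at 18226569 was listed in KO replicate 3 (fold 4.37) and in WT replicates 1 and 2 (folds 3.92 and 3.02). The stop codon site from 18218143 to 18218357 appeared in WT replicates 1 and 2 (folds 6.54 and 8.18) and in no KO list. Conversely, a start codon site of 21 bases from 18232871 appeared in KO replicates 1 and 3 (folds 4.69 and 4.00) and in no WT list. Both sites of KO replicate 1 had scores of 52.4 and 54.3, just above the minimum of the lists.

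PMAIP1 encodes NOXA, a BH3-only protein that binds MCL1, and like MCL1 it had no listed site. A gene without a listed site may have had reads below the peak caller's limits, and 17 lines emptied in the copies of the lists are not analysed here, so these zeros concern the lists only.

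**Figure D4:**
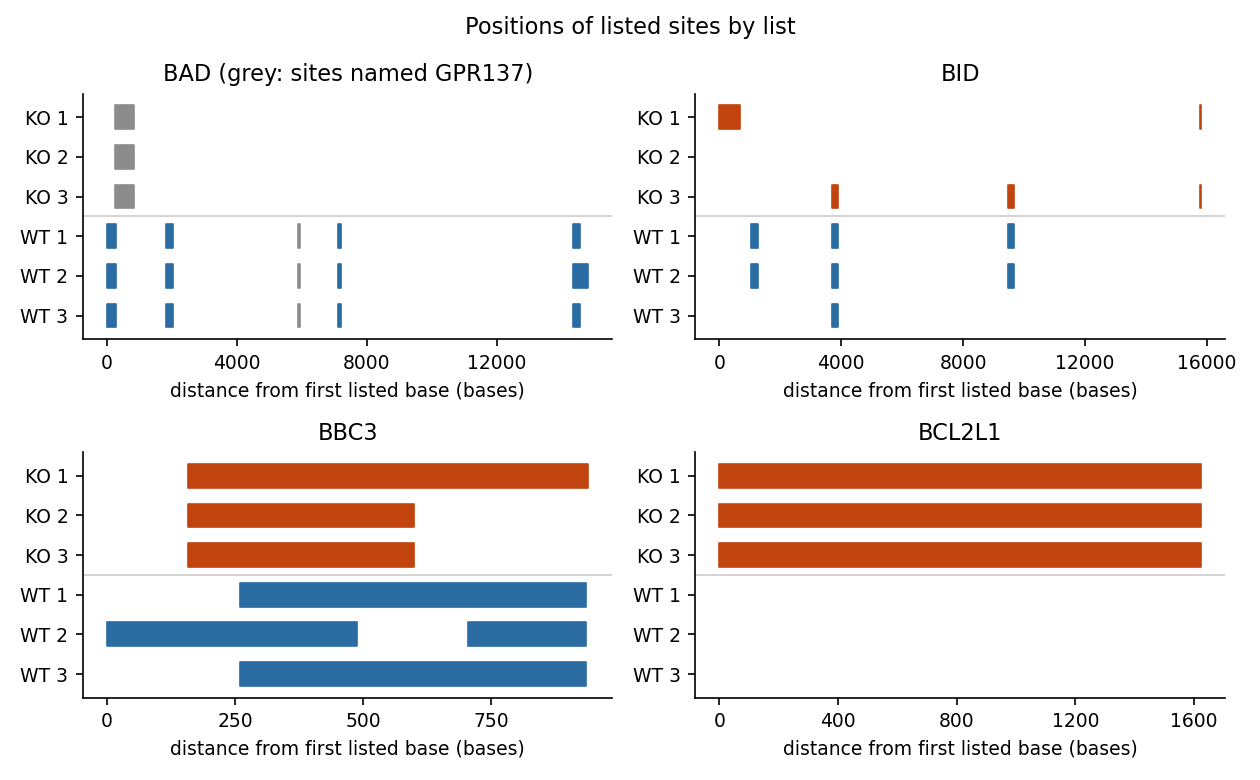
Positions of listed sites for BAD, BID, BBC3 and BCL2L1 in each list (KO above, WT below), drawn to scale with a thin outline, as distance in bases from the lowest listed coordinate. Sites named for GPR137 are grey. BAD has sites in the 3 WT lists, BCL2L1 has the same 1623-base site in the 3 KO lists, BBC3 sites overlap between genotypes, and BID sites vary from list to list.

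The 45 sites fell into 16 regions once sites that shared at least 1 base were merged over the 6 lists. Of these, 6 were present in the 3 WT lists and absent from KO (3 of BAD, 2 of BCL2L11 and 1 of BAK1), as were 21.8% of all 35919 regions. The BCL2L1 region alone was present in the 3 KO lists and absent from WT, as were 20.9% of all regions. A further 2 regions had sites in all 6 lists, against 8.07% of all regions: that of BBC3 and that of the BAD stop codon, where the KO sites carry the name GPR137. The remaining 7 regions, of BCL2 and BID, had other patterns, such as the BID region in all WT lists and 1 KO list. Start and end were identical in 3 lists for BCL2L1, BAK1 and 3 of the 4 BAD regions, whereas the ends of both BCL2L11 sites, of BBC3 and of the fourth BAD region varied between lists of a genotype.

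Member sites were annotated more often to start and stop codons than to the coding sequence between them. In KO lists, 4 of 13 member sites were at the stop codon (30.8%), 2 at the start codon (15.4%) and 2 in the coding sequence (15.4%), with 4 more in 3' UTRs. In WT lists, 14 of 32 were at the stop codon (43.8%), 9 at the start codon (28.1%) and 8 in the coding sequence (25%). Among all sites the coding sequence took 56.2% in KO and 56.6% in WT lists, the stop codon 13.4% and 13.7%, and the start codon 14.6% and 13.7%. These are counts of few sites that recur between replicates, so the shares describe 7 genes and were not tested.

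The lists around the family were examined with 56 further apoptosis genes: other BCL2 proteins, the mitochondrial route to caspases, the death receptor route, and proteins that act on BCL2 family genes or proteins. A site was listed for 45 of them. Together they held 82.7 ± 12.1 sites per KO list and 93.3 ± 8.02 per WT list (SD, n = 3 each). That is a difference of -10.7, of which HUWE1 alone made up -8.67. Genes of this list with a site numbered 34.3 ± 5.51 per KO list and 35 ± 1 per WT list (SD, n = 3 each). Without KO replicate 1, the shortest list, the difference of -0.667 genes turned to 2.5. At a false discovery rate of at most 50% it turned to 14.7, with 22.7 genes per KO list and 8 per WT list. Over all genes under that limit, 273 had fewer and 2741 had more sites in every KO list. The limit removed 43.2% to 68.1% of KO sites and 91.9% to 92.8% of WT sites. In the lists as deposited, site numbers did not overlap for 22 genes, 12 lower and 10 higher in KO lists, beside the shares of 23.1% and 23.7% among all genes. The median difference was 0 sites per list, as over all genes, and each of the 22 had an exact permutation p of 0.1 (adjusted p = 0.214 over all genes).

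Among the 14 other BCL2 proteins, of which 9 had a site, 4 had fewer and 3 more sites in every KO list. Over all genes with a site, 23.1% had fewer and 23.7% more. BCL2L2, which encodes the antiapoptotic protein BCL-w, held 0, 1 and 1 sites in the KO lists and 2 in each WT list. Its WT stop codon site had folds of 429, 527 and 539, and its KO sites lay elsewhere, in the 5' UTR, with folds of 3.56 and 5.25. BCL2L12 held none in KO lists and 2, 1 and 1 in WT lists. BOK, an effector relative of BAX and BAK, had 1 site in each KO list and 2 in each WT list, but they shared a region. The KO site, annotated to the stop codon, was 1773 or 1842 bases long and covered both WT sites. BNIP3, a mitochondrial protein of hypoxia and mitophagy, had 2 sites in each KO list and 3 in each WT list.

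Of the BH3-only genes outside the 10, BIK and BMF were listed in every KO list and in no WT list, as were 15% of all genes. BIK held 1 start codon site in each KO list, with folds of 104, 76.2 and 77.1, and no site in WT lists. BMF, whose product is released from the motor complexes of the cytoskeleton, held 1, 2 and 1 sites in KO lists and none in WT lists. BNIP3L, a mitophagy receptor, also held 1, 1 and 2 in KO lists and none in WT lists. HRK had no listed site.

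On the mitochondrial route, genes lay on both sides. APAF1, the scaffold of the apoptosome, held 5, 7 and 7 sites in KO lists and 2 in each WT list, and the caspase that it activates, CASP9, held 4, 5 and 4 in KO lists and 3 in each WT list. BIRC6, a very large inhibitor of apoptosis, held 8, 10 and 8 in KO lists and 7, 6 and 3 in WT lists. BIRC2, which encodes cIAP1, had 1 stop codon site in each KO list and none in WT lists, while its relative BIRC3 had none in KO lists and 1 coding site in each WT list. CYCS, which encodes cytochrome c, and DIABLO, whose product relieves caspases of their inhibitors, had no KO site. In the WT lists CYCS held 1 site each and DIABLO 3, 2 and 3, all with folds under 6.

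Of the 9 genes of the death receptor route, 8 had a site and CFLAR alone had non-overlapping site numbers, as did 46.8% of all genes. It encodes FLIP, which blocks caspase-8, and held 7, 5 and 4 sites in KO lists and 3, 2 and 3 in WT lists.

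Of the 15 genes that act on the family, all with a site, 5 had fewer and 2 more sites in every KO list. The shares over all genes with a site were 23.1% fewer and 23.7% more. Genes whose products set the turnover of MCL1 lay on both sides. The ubiquitin ligase gene HUWE1 held 11, 14 and 12 sites in KO lists and 22, 21 and 20 in WT lists, FBXW7 held none in KO lists and 3 in each WT list, and the deubiquitinase gene USP9X held 3, 4 and 3 in KO lists and 7, 7 and 6 in WT lists. BTRC, another ubiquitin ligase gene, conversely held 3 in each KO list and 1, 1 and 0 in WT lists. DYNLL2, the dynein light chain that holds BMF, had 0, 1 and 1 sites in KO lists and 2 in each WT list. TMBIM6, the BAX inhibitor 1 gene, held 3, 3 and 2 sites in KO lists and none in WT lists.

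**Figure D5:**
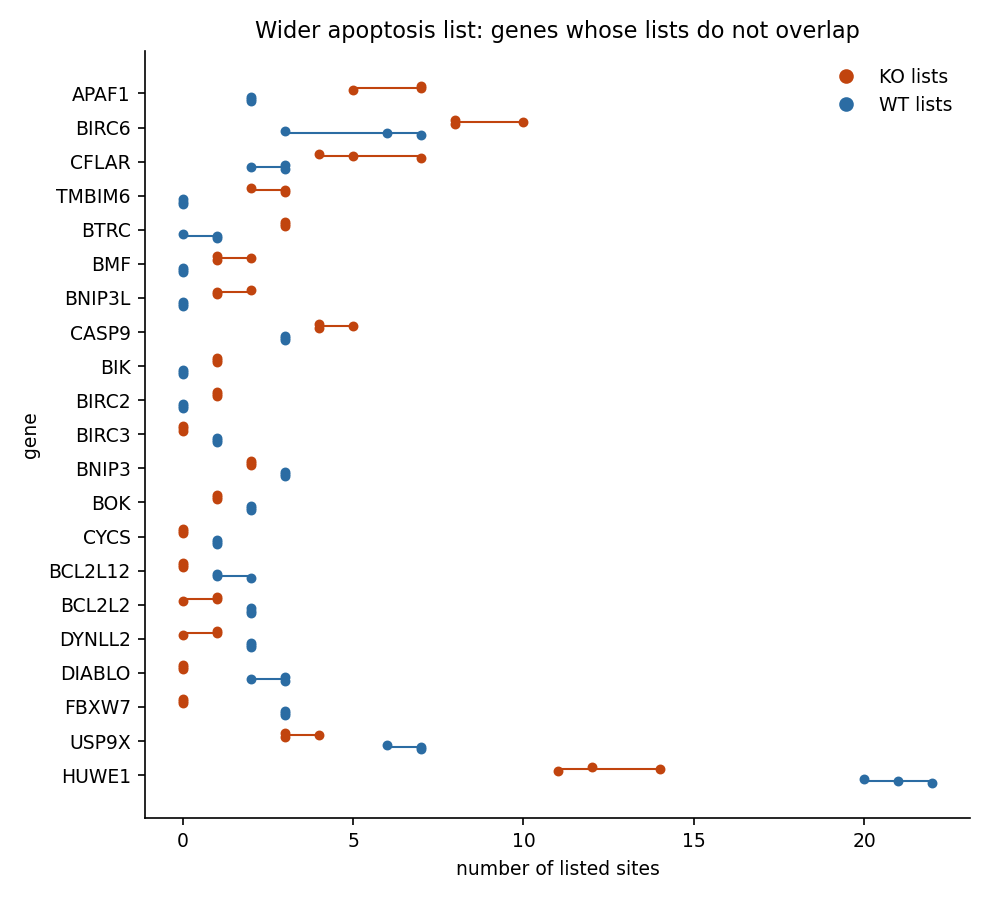
Number of listed sites per list (points; lines span the 3 lists) for 21 of the 22 genes of the wider apoptosis list whose KO lists (red, upper) do not overlap the WT lists (blue, lower). Genes are ordered by the difference of KO minus WT: 10 lie higher in KO lists, from APAF1 down, and 11 lower, from HUWE1 up.

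The false discovery rate bears on how far site numbers can be compared, since it differed between genotypes over the whole lists. Sites with a rate above 50% made up 62.4%, 68.1% and 43.2% of the KO lists and 92.8%, 92.1% and 91.9% of the WT lists. With sites limited to a rate of at most 50%, BCL2L1 kept 1 site in every KO list. BCL2L11 kept 2 in every WT list, and BCL2 and BBC3 each kept 1 site, in KO replicate 3 alone. BAD, BAK1 and BID had none left in any list. Over all genes under this limit, 273 had fewer and 2741 had more sites in every KO list, against 2368 and 2429 in the lists as deposited. The part that the false discovery rate has in the other differences was not tested.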

How the data were processed

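The 12 samples are 3 pairs of ac4C IP and input from each genotype. Tools named in the submitters' processing notes, without a role, are HISAT2 2.0.4 and cutadapt 1.9.3, and the build named there is hg38. Per the file headers, the authors listed sites called by MACS, separately for each pair; the aligner's settings and the MACS version are not given in the sources used here. The deposited score is 10 times the negative log10 of the p-value, the fold enrichment is the authors' ratio of IP over input, and the authors give the false discovery rate in percent. They serve here to rank, describe or filter sites of the same list. No counts or library totals were used, so depth is unknown.

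In KO replicate 1 the coordinates and the transcript part stand in another row order than the gene, length, fold and false discovery rate. They were rejoined by equal score and length, with ties settled by chromosome, for 13344 of 13818 rows, including all 4 member rows. Site numbers do not need this join, and the join was checked on shuffled copies of the other lists. None of the 45 member sites touches the GRCh38 span of its gene, so the files' coordinates are not GRCh38, and they are given as in the files, with starts 1 higher because the files count from 0. The RefSeq table of GRCh38.p14 served for gene names (by GeneID or transcript) and for overlapping genes only.

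Mean site numbers of the 3 KO and 3 WT lists were compared by exact permutation, two-sided (python 3.11.15, numpy 2.4.6). All 10 genes are named, with those of the wider list whose lists do not overlap (1 of which is not reported here), and NAT10. The members and lists were chosen with earlier results of these data known. Same-numbered KO and WT lists had correlations of deviations of -0.0847, 0.00292 and -0.0784 over 10252 genes, which gave no sign of pairing by replicate number. With 3 lists per genotype, this check cannot exclude that same-numbered samples were handled together.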

Additional observations from a re-analysis of the deposited data

How the results depend on the processing

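Over 13 alternatives, the difference of KO minus WT in family sites per list lay between -7.67 and -0.333, and it was smallest at a false discovery rate of at most 50%. Under that limit other values moved too: members with a site per list turned to 0.667 from -2, wider apoptosis genes with a site turned to 14.7 from -0.667, and genes with fewer sites in every KO list numbered 273 in place of 2368, beside 2741 with more in place of 2429. By its own construction the limit removes 43.2% to 68.1% of KO sites and 91.9% to 92.8% of WT sites. BBC3 turned to 0.333 there. Without KO replicate 1, the wider list turned to 2.5, and leaving out 1 list at a time gave -2.5 to 2.5. Without KO replicate 2, BID turned to 0.167, and leaving out 1 list gave it -1.33 to 0.167. The cause was not tested. BCL2L1 stayed at 1 and BCL2L11 between -2 and -1.67 under all 13 alternatives, and BAD and BAK1 changed only at the limit of 50%, to 0. BID was also 0 at that limit. For BCL2L1, BCL2L11, BAD and BAK1, the lists of a genotype held equal numbers. Leaving out 1 list or using the replicate block therefore could not change their differences. Their folds were all above 4, so the fold limit could not either. Leaving out 1 list gave family differences of -7.67 to -5.17 sites and -2.5 to -1.5 members. With the replicate block, the differences are the same by construction (-6.33 family sites), its smallest possible exact p is 0.25, so no gene passed with or without it. A fold of at least 4, a length of at least 50 bases, equal list lengths, merging within 100 bases and a stricter join moved the family difference to between -6.67 and -6.33. MCL1, BAX and PMAIP1 had no site under any setting, which was fixed in advance because no setting can add a site. The absence of depth limits all statements to listed sites.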

Other observations

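Some apoptosis genes with sites in both genotypes had very different folds within their lists. They were chosen after their values were seen, folds come from lists made separately, and no difference was tested. FADD, the adaptor of death receptors, had a start codon site in all 6 lists, on chromosome 11 up to 70049851. It was 434 bases long with folds of 362, 353 and 392 in KO replicates 1, 2 and 3, above the 99th percentile of each list. In the WT lists the site was 95 to 130 bases long with folds of 13.0, 13.8 and 13.3, between the 70.8th and 74.2nd percentile. TRADD, another death receptor adaptor, had a stop codon site on chromosome 16. Its folds were 34.1, 20.5 and 23.9 in the KO lists, between the 85.9th and 88.4th percentile. In the WT lists its folds were 251, 301 and 366, at the 98.4th percentile of each list. The site was thus in the upper part of every list. The highest fold of any site was 4273 to 4394 in the KO lists and 11665 to 20236 in the WT lists.

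AIFM1 and XIAP held sites in different places by genotype. AIFM1, which encodes the apoptosis-inducing factor of mitochondria, had 2, 3 and 2 sites in KO lists and 2 in each WT list, yet no region of it was shared. Its highest folds were 17.0, 11.5 and 12.5 in KO lists, at the start codon, and 178, 223 and 187 in WT lists, in the coding sequence. XIAP, an inhibitor of caspases, had a 3' UTR site in every KO list (folds 45.9, 49.6 and 44.7) and a coding site in WT replicates 1 and 2 (folds 2.22 and 2.37).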
